A study of Rattus norvegicus with 8 samples.

Results

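The genes described here are 41 chaperones, folding enzymes, degradation factors and stress sensors of the endoplasmic reticulum (ER), chosen by name. A gene was included when its symbol had a row in the sheet of all genes, which gave 39 of 13536 rows. Derl3 and Selenos had no row under those symbols and are not among the 39. A row named Vimp, an older symbol of Selenos in RefSeq, is given apart from the 39. All 39 passed the filter on low values, which asked for 10 normalized counts in at least 4 of the 8 libraries and left 11847 tested genes.

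The libraries came from primary nucleus pulposus cells, the cells of the core of the intervertebral disc, which grew out of Wistar rat spine explants in DMEM with serum. Cells carried a lentiviral hairpin against HuR (ShHuR, 4 libraries) or the MISSION PLKO.1 non-target hairpin (ShCTR, 4 libraries), and both groups spent the last 24 h at 1% oxygen. HuR, encoded by Elavl1, is an RNA-binding protein that stabilises many mRNAs, and the series asks which transcripts depend on it in these cells. Whether same-group libraries stand for different rats or dishes is not in the labels, and neither is the age of the rats.

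Proteins bound for secretion are folded in the ER by BiP (Hspa5) and other chaperones, by lectins that bind glycans, and by disulfide isomerases. Misfolded proteins are returned to the cytosol and degraded, a process called ER-associated degradation. When unfolded proteins build up, the sensors PERK (Eif2ak3), IRE1 (Ern1) and ATF6 start the unfolded protein response. ATF6 and spliced XBP1 then raise transcription of chaperone and degradation genes. Disc cells are matrix secretors in a tissue with little oxygen, and collagen, a main secreted product, needs its own ER chaperone, Serpinh1.

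Elavl1 had 63.8, 6.06, 8.36 and 49.6 normalized counts in ShHuR replicates 1 to 4, against 555, 699, 583 and 644 in ShCTR replicates 1 to 4 (log2 fold change −4.84, SE 0.55, adjusted p = 0.00663; limma with the replicate block). The ShHuR values all lay below the ShCTR values, and 11.5%, 0.867%, 1.43% and 7.7% of the same-numbered control level remained in pairs 1 to 4. Reads per library ran from 6797360 to 8038192 in ShHuR and from 9096738 to 12179515 in ShCTR, so the ShHuR libraries were shallower. Libraries with the same replicate number deviated together from their group means, with correlations across genes of 0.87, 0.78, 0.63 and 0.77 for numbers 1 to 4. Numbers 2 and 3 were less distinct from each other, since ShHuR replicate 2 and ShCTR replicate 3 correlated at 0.62, and ShHuR replicate 3 and ShCTR replicate 2 at 0.43. As each same-numbered correlation was above 0.1, same-numbered libraries are treated as pairs. "Fell" and "rose" are written of genes past an adjusted p of 0.05 in limma with replicate number as a block, which called 848 of the tested genes higher and 954 lower. Limma without the block was planned as the main fit, and the block as an alternative for same-numbered libraries that deviate together. Without the block limma and edgeR called 0 genes and DESeq2 248, and at an unadjusted p under 0.05 they had 978, 1010 and 1280, in that order. Of the marker genes of the labelled cells, Acan (aggrecan) and Car12 were detected in each library and fell. Sox9, a cartilage and nucleus pulposus factor, was between 8.08 and 32.4 normalized counts in ShHuR and between 13.9 and 44.8 in ShCTR. Col2a1 was at 3.04 or below in ShHuR and at 21.0 or below in ShCTR.

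ATF6 and XBP1 are known to act through short DNA elements in promoters, and the members' promoter sequences are given here. The motif search was chosen after the members' values were seen. RefSeq promoter windows of the GRCr8 assembly, 250 bases before to 50 after a gene's start, were found by symbol for 32 of the 41 members, in 33 windows. They were searched on both strands for the ER stress response element ERSE (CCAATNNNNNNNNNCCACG), for ERSE-II (ATTGGNCCACG) and for the UPRE core (TGACGTGG). ERSE and ERSE-II bind ATF6 together with the CCAAT factor NF-Y, and the UPRE binds XBP1. ERSE-II holds the CCAAT box of ERSE in reverse, and the UPRE core read on the other strand begins with the CCACG that ends both elements.

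ERSE stood in 9 of the 33 member windows and in 0.0657% of all 33469 windows. ERSE-II stood in 3 member windows and in 0.0508% of all windows, and the UPRE core in 2 and in 0.595%. Among 66 windows of other ER folding, degradation and translocation genes, 0 held ERSE, 0 held ERSE-II and 4 held the UPRE core. As the members were chosen by name as genes of ER folding and the unfolded protein response, these shares are a description and not a test. A match describes letters in a window and is not evidence of binding. The ERSE-II sites of the 3 members are shown because these 3 genes all fell. Capitals mark the motif, and each site is read on the strand that spells it.

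Hyou1 (chr8:53602686-53602712, minus strand): ggctgcggATTGGCCCACGtcacggtt
Hyou1 (chr8:53602786-53602812, minus strand): acgtccccATTGGGCCACGtagaagac
Herpud1 (chr19:10614813-10614839, minus strand): gggcgctgATTGGGCCACGttgggcac
Dnajb11 (chr11:91672792-91672818, minus strand): aggcggcgATTGGCCCACGcctggctg

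Some of the ERSE sites of members with a row follow, since these members include the main chaperones. Derl3, which has no row, also held 1.

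Hspa5 (chr3:38452965-38452999, plus strand): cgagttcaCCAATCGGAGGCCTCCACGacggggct
Hsp90b1 (chr7:23012443-23012477, minus strand): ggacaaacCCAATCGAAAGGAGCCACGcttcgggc
Hsp90b1 (chr7:23012339-23012373, plus strand): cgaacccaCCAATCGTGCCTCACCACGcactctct
Calr (chr19:40213127-40213161, minus strand): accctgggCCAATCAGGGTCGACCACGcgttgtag
Dnajc3 (chr15:102432526-102432560, plus strand): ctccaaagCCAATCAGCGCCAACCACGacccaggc
Creld2 (chr7:121789231-121789265, minus strand): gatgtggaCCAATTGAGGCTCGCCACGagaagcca
Ero1b (chr17:92941450-92941484, minus strand): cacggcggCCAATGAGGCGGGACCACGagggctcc
Xbp1 (chr14:84604550-84604584, plus strand): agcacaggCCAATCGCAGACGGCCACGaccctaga

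The whole windows of Hyou1 and Hspa5 show how these sites lie. Capitals mark ERSE, ERSE-II and the UPRE core. In Hyou1 the upstream run of capitals is the UPRE core overlapping an ERSE-II, and the second run is another ERSE-II. In Hspa5 the single exact ERSE begins at position −43 from the start.

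Hyou1 (chr8:53602632-53602931, plus strand): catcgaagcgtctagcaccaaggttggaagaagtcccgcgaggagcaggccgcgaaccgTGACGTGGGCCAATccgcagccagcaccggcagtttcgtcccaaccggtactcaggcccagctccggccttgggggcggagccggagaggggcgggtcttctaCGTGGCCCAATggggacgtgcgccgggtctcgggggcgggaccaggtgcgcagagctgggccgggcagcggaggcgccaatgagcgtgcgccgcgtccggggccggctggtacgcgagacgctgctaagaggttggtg
Hspa5 (chr3:38452766-38453065, plus strand): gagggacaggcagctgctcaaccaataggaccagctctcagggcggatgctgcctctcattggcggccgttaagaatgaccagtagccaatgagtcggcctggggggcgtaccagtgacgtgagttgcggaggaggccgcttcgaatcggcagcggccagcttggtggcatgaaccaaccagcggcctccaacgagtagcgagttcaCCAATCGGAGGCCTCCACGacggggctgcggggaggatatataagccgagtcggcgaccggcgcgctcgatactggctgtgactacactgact

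Of the 39 members 8 fell and 0 rose in limma with the block. That is 20.5% of the members, where 8.05% of all tested genes were called lower and 7.16% higher. The 8 were Hyou1, Ero1a, Sdf2l1, Pdia4, Uggt1, Herpud1, Eif2ak3 and Dnajb11. EdgeR with the block called the same 8 and no other member, where it called 8.54% of all genes lower and 7.03% higher. DESeq2 with the block called 14 members lower and 0 higher, where it called 9.04% of all genes lower and 8.29% higher. The authors' deposited table also calls 14 members, all lower, and they are the 14 of DESeq2. Limma with the block and no mean-variance trend called 0 members, where it called 2.79% of all genes lower and 2.04% higher, with 18 members lower at an unadjusted p under 0.05, beside 16% of all genes. Without the block limma, edgeR and DESeq2 each called 0 members, where DESeq2 called 1.18% of all genes lower and 0.912% higher. In limma without the block, the planned main fit, adjusted p of the 8 members that fell ran from 0.436 (Uggt1) to 0.888 (Eif2ak3). At an unadjusted p under 0.05 and without the block, limma had 4 of 39 members lower, beside 4.82% of all genes, edgeR 4 beside 4.75%, and DESeq2 6 beside 5.32%. None of the 3 had a member higher at that p.

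The fold change lay below 0 in 31 of 39 members (79.5%), beside 48.8% of all tested genes. The median log2 fold change was −0.31 over the members and 0.01 over all tested genes. In each of the 4 pairs 21 members were lower in ShHuR, beside 19.4% of all genes, and 1 (Syvn1) was higher, beside 22.3%. The ShHuR and ShCTR values did not overlap for 1 member, Uggt1, where 3.09% of all genes had ShHuR values all below the ShCTR values and 2.52% all above them. The 39 genes together took 2.40%, 1.59%, 1.69% and 1.96% of the reads of ShHuR replicates 1 to 4, against 2.45%, 2.11%, 2.12% and 2.35% in ShCTR replicates 1 to 4.

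Cell type markers moved as well. Of 8 tested fibroblast and annulus markers 4 fell and 0 rose, where 8.05% of all tested genes fell and 7.16% rose. Col1a1, Col3a1, Thy1 and Pdgfrb fell, with log2 fold changes of −2.35, −2.01, −0.90 and −0.78 in that order. The summed level of all 8 markers ran from 45889 to 132044 in ShHuR and from 59092 to 164926 in ShCTR. That sum held Dcn, which did not pass and was at 80136 in ShHuR replicate 1 (log2 fold change 0.59, adjusted p = 0.394; limma with the block). Of the 8 tested markers of nucleus pulposus and notochord, Acan and Car12 fell and none rose. Sums over the 9 such markers with a row, untested Col2a1 included, were 385 to 1564 in ShHuR and 603 to 1930 in ShCTR. Of the 2 tested leukocyte markers 0 passed, with sums of 550.5 to 1239.9 in ShHuR and 324 to 915 in ShCTR. Within those sums Cd68 was at 614 and 496 in ShHuR and ShCTR replicate 1, and at 145 or below in the other libraries. Cd14, the other marker, was between 310 and 653 in all libraries. The 2 endothelial markers with a row were under the filter, at sums of 1.52 to 23.0 in ShHuR and 4.48 to 8.41 in ShCTR. The part of these markers in the members' changes was not tested, and in bulk RNA fewer cells of a type cannot be told apart from less RNA per cell.

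**Figure D1:**
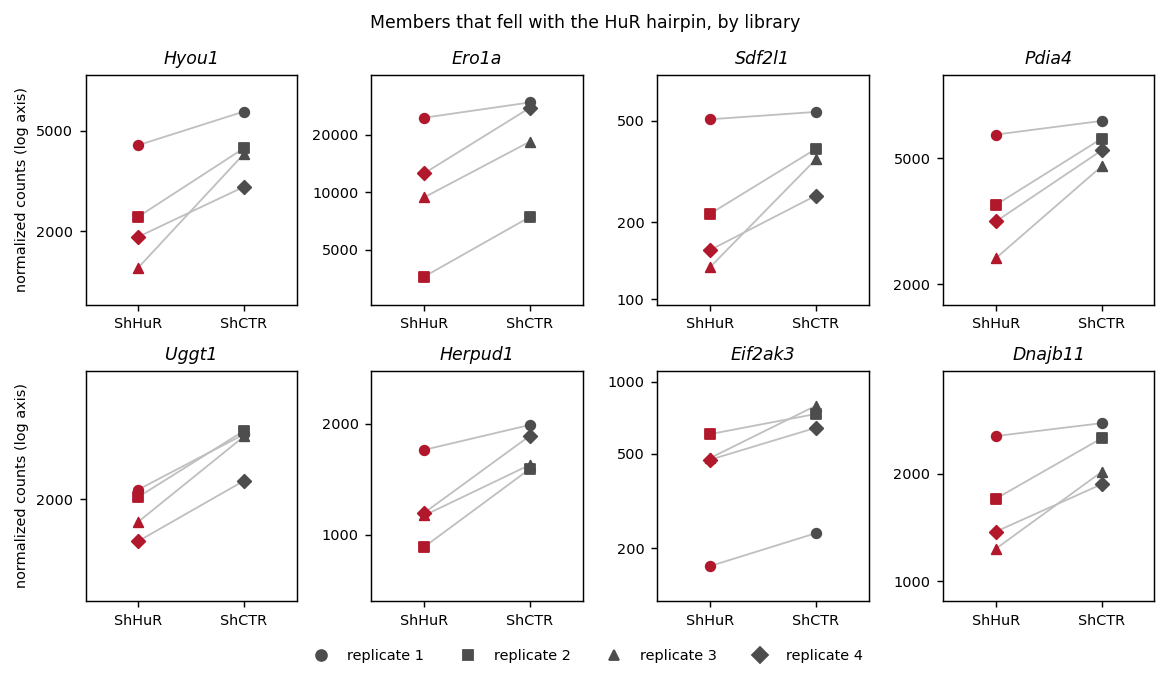
Normalized counts (log axis, a separate range in each panel) of the 8 members that fell, in ShHuR and ShCTR libraries. Each point is a library, shapes give the replicate number and grey lines join same-numbered libraries. Every line is lower at its ShHuR end, and replicate 1 is the shallowest line in each panel except that of Eif2ak3.

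Among the 9 chaperones and co-chaperones 3 fell (33.3%) and 0 rose, where 8.05% of all tested genes fell and 7.16% rose. The median log2 fold change of the 9 was −0.46. Hyou1, an HSP110-type exchange factor of BiP, had 4381, 2284, 1437 and 1903 normalized counts in ShHuR replicates 1 to 4, against 5951, 4263, 4049 and 2999 in ShCTR replicates 1 to 4. The highest ShHuR value, in replicate 1, overlapped the controls, and the other 3 ShHuR libraries lay below all of them (log2 fold change −0.87, SE 0.17, adjusted p = 0.0223). Sdf2l1, a component of an ER chaperone complex with the J-protein ERdj3, had 506, 216, 134 and 156 normalized counts in ShHuR replicates 1 to 4, against 541, 387, 352 and 255 in ShCTR replicates 1 to 4. Again replicate 1 stood above the other libraries of its group, and there the pair differed least (log2 fold change −0.76, SE 0.19, adjusted p = 0.0399). Dnajb11 encodes ERdj3, a BiP co-chaperone that binds unfolded chains. It had 2548, 1703, 1234 and 1377 normalized counts in ShHuR replicates 1 to 4, against 2768, 2512, 2022 and 1868 in ShCTR replicates 1 to 4, with replicate 1 of ShHuR inside the control range (log2 fold change −0.46, SE 0.12, adjusted p = 0.0443).

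BiP itself, Hspa5, had 35774, 10038, 8546 and 10653 normalized counts in ShHuR replicates 1 to 4, against 38751, 14708, 12484 and 11990.3 in ShCTR replicates 1 to 4. Each pair was lower in ShHuR, at −0.12, −0.55, −0.55 and −0.17 on the log2 scale, but the gene did not pass (log2 fold change −0.35, SE 0.17, adjusted p = 0.187, 95% interval −0.74 to 0.05). Hsp90b1, the ER-resident HSP90 known as GRP94, had 15839, 7849, 6192 and 7789 normalized counts in ShHuR replicates 1 to 4, against 16235, 12475, 12565 and 11177 in ShCTR replicates 1 to 4. The 3 ShHuR libraries other than replicate 1 lay below all controls, and the gene did not pass in limma (log2 fold change −0.56, SE 0.19, adjusted p = 0.0801), though DESeq2 with the block called it (adjusted p = 0.0191). Dnajc3, known as p58IPK, an inhibitor of PERK and BiP co-chaperone, also did not pass in limma and was called by DESeq2 (log2 fold change −0.47, SE 0.14, adjusted p = 0.0562; DESeq2 with the block, adjusted p = 0.0339). Its values were 1295, 1271, 1355 and 1489 in ShHuR replicates 1 to 4, against 1401, 2051, 2357 and 1807 in ShCTR replicates 1 to 4, with ShHuR replicate 4 above the lowest control.

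The secreted stress proteins Manf and Creld2 had log2 fold changes of −0.20 and −0.10, with 95% intervals of −0.49 to 0.09 and −0.46 to 0.26. Neither passed (adjusted p = 0.281 and 0.679), and in pair 1 both were higher in ShHuR. Dnajb9 encodes ERdj4, a BiP co-chaperone that represses IRE1 and is a known XBP1 target. Its values were 827, 1430.0, 1471 and 1897 in ShHuR replicates 1 to 4, against 814, 1196, 1536 and 1425 in ShCTR replicates 1 to 4. The groups overlapped and the fold change was above 0 without passing (log2 fold change 0.16, SE 0.11, adjusted p = 0.353).

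Calreticulin (Calr) and calnexin (Canx), the lectin chaperones of new glycoproteins, and Uggt1, the glucosyltransferase that sends misfolded glycoproteins back to them, were lower in ShHuR in every pair. Uggt1 had 2114, 2028, 1764 and 1582 normalized counts in ShHuR replicates 1 to 4, against 2884, 2941, 2849.7 and 2221 in ShCTR replicates 1 to 4. Its ShHuR values all lay below the control values, and its 4 pairs moved by similar amounts, −0.45, −0.54, −0.69 and −0.49 (log2 fold change −0.54, SE 0.10, adjusted p = 0.0192). Calr had 17344, 10077, 6511 and 6481 normalized counts in ShHuR replicates 1 to 4, against 17690.1, 19911, 15303 and 10133 in ShCTR replicates 1 to 4. ShHuR replicates 2, 3 and 4 lay below the lowest control, and pair 1 was nearly level at −0.03. Canx had 14654, 9310.4, 11332 and 10591 normalized counts in ShHuR replicates 1 to 4, against 17778, 14867, 17964 and 13081 in ShCTR replicates 1 to 4, with ShHuR replicate 1 the single ShHuR library above the lowest control. Calr did not pass (log2 fold change −0.72, SE 0.22, adjusted p = 0.0603), nor did Canx (log2 fold change −0.48, SE 0.16, adjusted p = 0.0823), and DESeq2 with the block called both (adjusted p = 0.00705 and 0.00611).

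Of 8 genes of disulfide formation 2 fell (25%) and 0 rose, where 8.05% of all tested genes fell and 7.16% rose. Ero1a, the oxidase that recharges protein disulfide isomerase and a known target of hypoxia-inducible factor, had 24561, 3611, 9401 and 12564 normalized counts in ShHuR replicates 1 to 4, against 29531, 7421, 18401 and 27669 in ShCTR replicates 1 to 4. The groups overlapped, with replicate 1 highest and replicate 2 lowest in both, and each pair was lower in ShHuR (log2 fold change −0.85, SE 0.19, adjusted p = 0.0291). Pairs 2, 3 and 4 moved by −1.04, −0.97 and −1.14 and pair 1 by −0.27. Its paralog Ero1b did not pass and moved unevenly, at −0.64, −0.06, −0.71 and 0.10 in pairs 1 to 4 (log2 fold change −0.32, SE 0.16, adjusted p = 0.2).

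Pdia4, known as ERp72, an isomerase found with BiP, had 5926, 3560.0, 2418 and 3156 normalized counts in ShHuR replicates 1 to 4, against 6543, 5753, 4706 and 5282 in ShCTR replicates 1 to 4. Replicate 1 of ShHuR was the single ShHuR library within the control range (log2 fold change −0.63, SE 0.15, adjusted p = 0.0341). RefSeq names 1 pseudogene after Pdia4, 2 after Hsp90b1, 1 after Dnajc10 and 5 after Derl1, and how the authors' counting treated such copies is not given in the sources used here. The other isomerases did not pass. P4hb, the classical disulfide isomerase that is also a subunit of prolyl 4-hydroxylase, had a log2 fold change of −0.18 (95% interval −0.75 to 0.38; adjusted p = 0.623), and after quantile normalization with the block it was 0.15. Pdia3, the calnexin partner ERp57, was at −0.24 (adjusted p = 0.316), Pdia6 at −0.34 (adjusted p = 0.233) and the ER reductase Dnajc10 at −0.31 (adjusted p = 0.0999). Pdia5 was close to the filter in replicates 2 and 3 of both groups, at 251, 14.1, 7.31 and 151 normalized counts in ShHuR and 194, 10.3, 10.0 and 125 in ShCTR replicates 1 to 4, and did not pass (adjusted p = 0.615).

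The 3 genes of collagen folding gave 0 calls, where 8.05% of all tested genes fell and 7.16% rose. Serpinh1, the collagen chaperone HSP47, had 17104, 6142, 7702 and 8974 normalized counts in ShHuR replicates 1 to 4, against 19792, 8709, 7253 and 9373 in ShCTR replicates 1 to 4. The groups overlapped and pair 3 was slightly higher in ShHuR (log2 fold change −0.17, SE 0.15, adjusted p = 0.457, 95% interval −0.53 to 0.19). Col1a1, which encodes a collagen chain that Serpinh1 binds, fell in the same libraries, with 20117, 2897, 2444 and 7869.9 normalized counts in ShHuR replicates 1 to 4, against 44777, 28189, 23002 and 26008 in ShCTR replicates 1 to 4 (log2 fold change −2.35, adjusted p = 0.0127). Ppib, the ER cyclophilin B, was at −0.13 (adjusted p = 0.496), and Fkbp10, a prolyl isomerase of procollagen, at −0.46 (adjusted p = 0.0665; DESeq2 with the block, 0.0333).

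Of the 7 sensors and transcription factors 1 fell (14.3%) and 0 rose, where 8.05% of all tested genes fell and 7.16% rose. Eif2ak3 encodes PERK, the kinase that phosphorylates eIF2α. It had 169, 603, 478 and 471 normalized counts in ShHuR replicates 1 to 4, against 232, 732, 793 and 641 in ShCTR replicates 1 to 4. The pairs moved by −0.46, −0.28, −0.73 and −0.44, so that pair 1, which was lowest in level in both groups, changed by an amount within the range of the others (log2 fold change −0.48, SE 0.11, adjusted p = 0.0299). Ern1, which encodes IRE1α, had 1139.6, 564, 761 and 787 normalized counts in ShHuR replicates 1 to 4, against 1272, 379, 557 and 455 in ShCTR replicates 1 to 4. In pairs 2, 3 and 4 ShHuR was higher, by 0.57, 0.45 and 0.79, and in pair 1 it was lower, at −0.16. Ern1 did not pass with all pairs (log2 fold change 0.41, SE 0.16, adjusted p = 0.106), and it did without pair 1 (log2 fold change 0.60, adjusted p = 0.00987).

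Xbp1, whose mRNA IRE1 splices, had 340.4, 937, 1066 and 1258 normalized counts in ShHuR replicates 1 to 4, against 312, 934, 1171 and 1055 in ShCTR replicates 1 to 4, with pairs 1 to 4 at 0.13, 0.00, −0.14 and 0.25 (log2 fold change 0.06, SE 0.10, adjusted p = 0.699, 95% interval −0.18 to 0.30). Gene counts do not separate its spliced from its unspliced form. Atf6 and its paralog Atf6b were at −0.29 and −0.22 and did not pass (adjusted p = 0.102 and 0.176), though each was lower in ShHuR in every pair. Creb3l1 and Creb3l2, ATF6-like factors linked to collagen secretion, had fold changes of opposite sign, 0.50 and −0.67, and neither passed (adjusted p = 0.197 and 0.0719). Pair 4 moved Creb3l1 by 1.52, and pair 3 moved Creb3l2 by −1.51, each far from its other pairs.

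Of the 9 tested genes of ER-associated degradation 1 fell (11.1%) and 0 rose, where 8.05% of all tested genes fell and 7.16% rose. The median log2 fold change of the 9 was −0.03. Herpud1, a membrane protein that assembles the degradation complex and is strongly induced by ER stress, had 1697, 927, 1128 and 1146 normalized counts in ShHuR replicates 1 to 4, against 1982, 1508, 1546 and 1852 in ShCTR replicates 1 to 4. ShHuR replicates 2, 3 and 4 lay below all controls (log2 fold change −0.52, SE 0.12, adjusted p = 0.0281). Derl1, a channel component, had 2205, 1044, 1061 and 1513 normalized counts in ShHuR replicates 1 to 4, against 2439.6, 1920.0, 1993 and 1765 in ShCTR replicates 1 to 4, with ShHuR replicate 1 inside the control range. Derl1 and Os9, a lectin that selects substrates, were lower in every pair without passing (−0.54 with adjusted p = 0.057, and −0.37 with adjusted p = 0.079). The ligase Syvn1 (HRD1), its partner Sel1l, and the mannosidase-like proteins Edem1, Edem2 and Edem3 had fold changes between −0.03 and 0.11. Their 95% intervals all lay between −0.36 and 0.37, and adjusted p-values ran from 0.533 to 0.9. Derl2 was at −0.16 (adjusted p = 0.329). Vimp, the older name of Selenos, a selenoprotein of the same complex, had 1041, 1264, 1099.9 and 1138 normalized counts in ShHuR replicates 1 to 4, against 1286, 1645, 1552 and 1345 in ShCTR replicates 1 to 4. All its ShHuR values lay below its control values, and it fell (log2 fold change −0.36, SE 0.10, adjusted p = 0.0467).

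**Figure D2:**
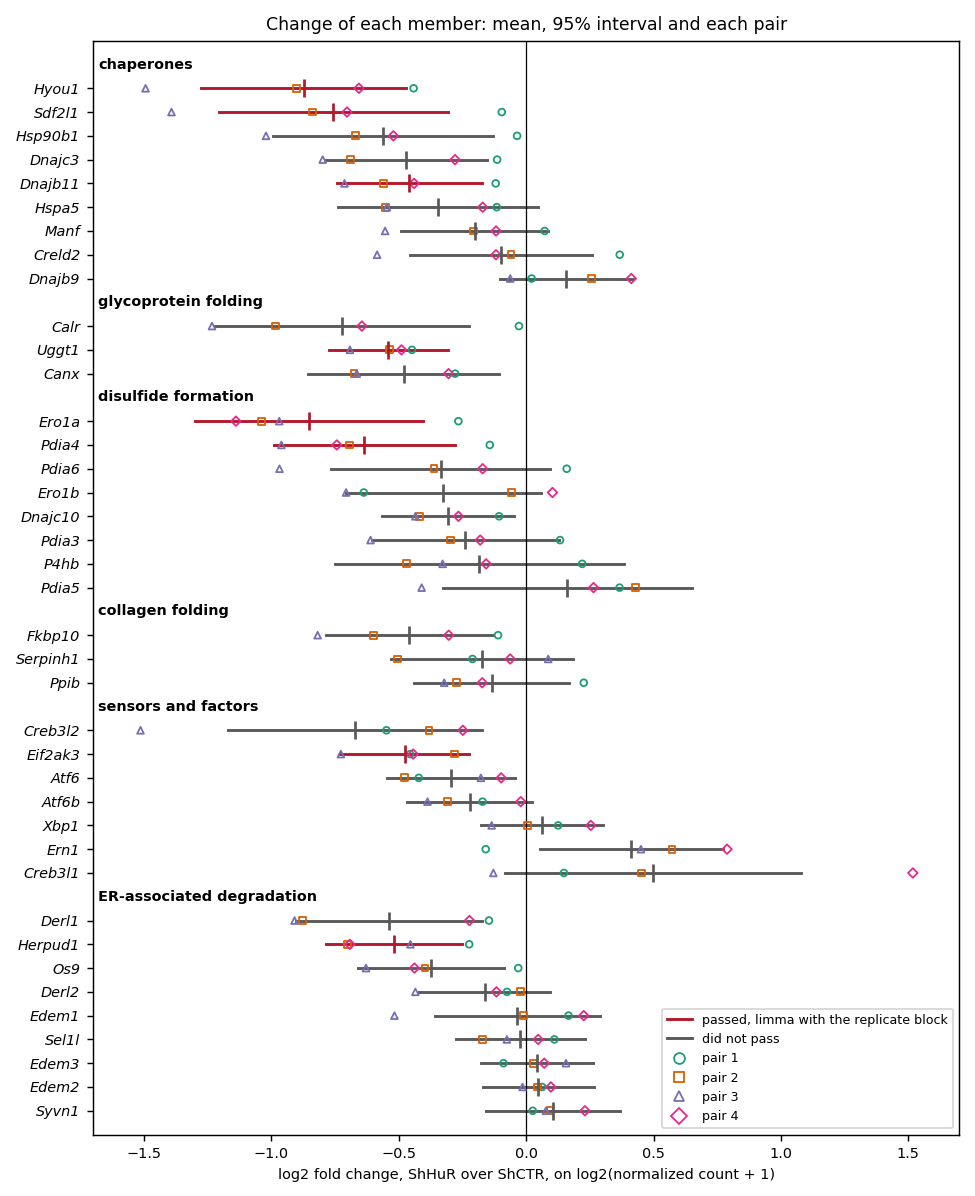
Log2 fold change (ShHuR over ShCTR) of the 39 members, ordered by role and size. Vertical ticks are means, horizontal bars 95% intervals from limma with the replicate block, open symbols the 4 pairs, and red bars the 8 members that passed. The chaperones and lectins lie mostly left of 0, and the Edem genes, Sel1l, Syvn1 and Xbp1 lie close to 0.

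The changes differed among the pairs. Pair 1 had the smallest change in 22 of 39 members (56.4%), where this held for 39.3% of all tested genes. The median over members was −0.10, −0.38, −0.55 and −0.17 in pairs 1 to 4, and the median over all tested genes was 0.04, 0.03, 0.00 and −0.02. ShHuR was the lower library in 25, 31, 35 and 28 of the 39 members in pairs 1 to 4. Among the 11847 tested genes ShHuR was the lower library in 5408, 5553, 5882 and 6099, in that order. Pair 1 also kept more Elavl1 than the other pairs, 11.5% of control, and the part of this in its smaller changes was not tested.

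The calls depended on which pairs were present. Without pair 1, limma with the block called 14 members lower and 1 higher, where it called 12.6% of all genes lower and 11.3% higher. The added members were Calr, Derl1, Dnajc3, Fkbp10, Hsp90b1 and Os9 as lower and Ern1 as higher. Without pair 2 it called 0 members, where 0.363% of all genes were lower and 0.16% higher. Without pair 3 it called 1, Hyou1, where 2.68% of all genes were lower and 1.73% higher, and without pair 4 it called 0 members and 0 genes in all, with 2937 genes at an unadjusted p under 0.05. At an unadjusted p under 0.05, 18 members were lower with all pairs, beside 17.0% of all genes. Without pair 2 there were 10 such members beside 12.3% of all genes, without pair 3 there were 15 beside 12.8%, and without pair 4 there were 16 beside 12.2%. The median of the members lay between −0.36 and −0.26 when any pair was left out.

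The members varied by replicate number about as often as all tested genes did. A limma F test of replicate number, with group in the model and chosen after the data were seen, called 23 of 39 members (59.0%), near the 59.6% of all genes. Both replicate 1 libraries lay above the other 6 libraries in 14 of 39 members and below them in 9 of 39, where 26.3% and 26.8% of all genes did so. Hspa5 was at 35774 normalized counts in ShHuR replicate 1 and 38751 in ShCTR replicate 1, and at 14708 or below in each of the other 6 libraries. Ern1, Atf6, Serpinh1, Hsp90b1, Hyou1, Pdia4 and Sdf2l1 were among the members above. The 9 below were Xbp1, Eif2ak3, Dnajb9 and 6 genes of ER-associated degradation (Edem1, Edem2, Edem3, Sel1l, Syvn1 and Derl2). A pair of transcription factors of the integrated stress response differed in the same libraries. Ddit3, which encodes CHOP, had 18837, 706, 919 and 615 normalized counts in ShHuR replicates 1 to 4, against 19834, 1142, 877 and 1053 in ShCTR replicates 1 to 4, and Atf4 had 20737, 4841, 6582 and 5334 normalized counts in ShHuR replicates 1 to 4, against 15778, 4976, 6502 and 7462 in ShCTR replicates 1 to 4. Neither passed between the groups (adjusted p = 0.152 and 0.92), and both were highest in the replicate 1 libraries. Ddit3 and Atf4 come from a list of 10 tested sensors and transducers outside the members. In that list both replicate 1 libraries lay above the other 6 in 5 genes and below them in 1, Trib3. Trib3 had 74.5 and 75.7 normalized counts in ShHuR and ShCTR replicate 1, and 172 or above in the other libraries. What sets replicate 1 apart is not given in the labels and was not tested.

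**Figure D3:**
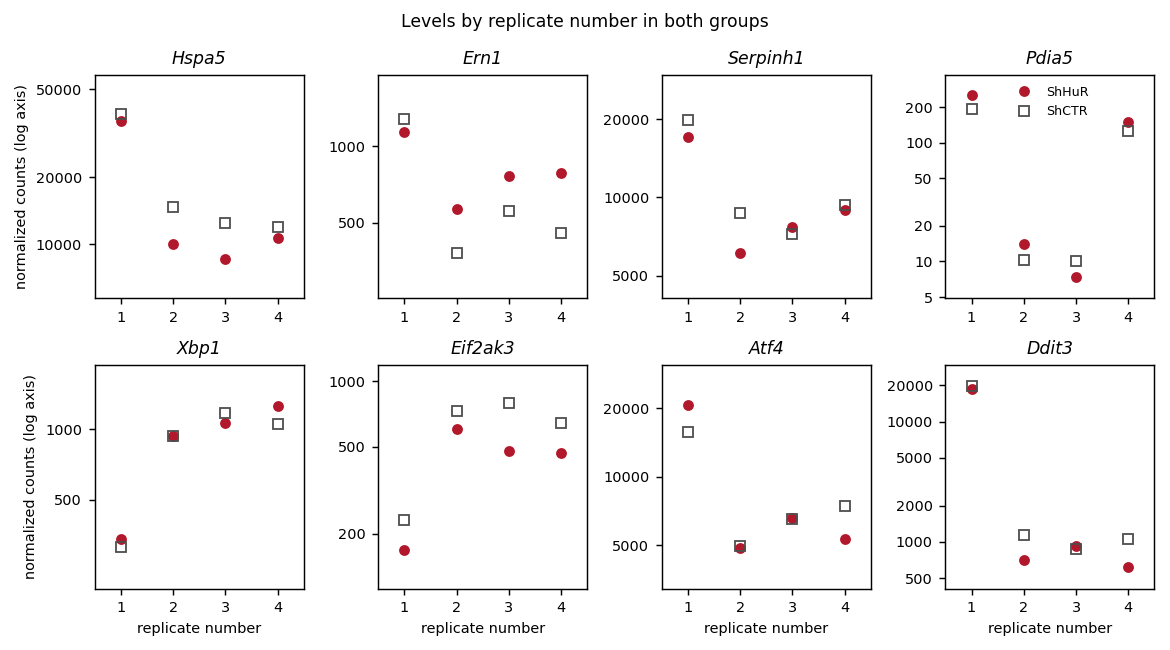
Normalized counts (log axis, a separate range in each panel) of 6 members and of Atf4 and Ddit3, by replicate number, with ShHuR as filled circles and ShCTR as open squares. In replicate 1 both libraries are high for Hspa5, Ern1, Serpinh1, Atf4 and Ddit3 and low for Xbp1 and Eif2ak3, and Pdia5 is low in replicates 2 and 3.

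Set beside the promoter sites, the 11 members with a row and an ERSE or ERSE-II had a median log2 fold change of −0.47, and 10 of the 11 lay below 0. The 19 members with a window and neither element had a median of −0.16, with 13 below 0. For the 9 members with no window it was −0.34, with 8 below 0. The 3 members with ERSE-II, Hyou1, Herpud1 and Dnajb11, all fell. Of the 8 with ERSE 0 fell in limma with all pairs, 3 were called lower by limma without pair 1 and 4 by DESeq2 with the block, so this count depends on the tool and the pairs used. Their fold changes ran from −0.72 for Calr to 0.06 for Xbp1. Sdf2l1, Pdia4, Uggt1 and Eif2ak3 fell and held neither element in their windows, which says nothing of sites elsewhere. These are descriptions of named genes, and no test was made of the difference between the classes.

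**Figure D4:**
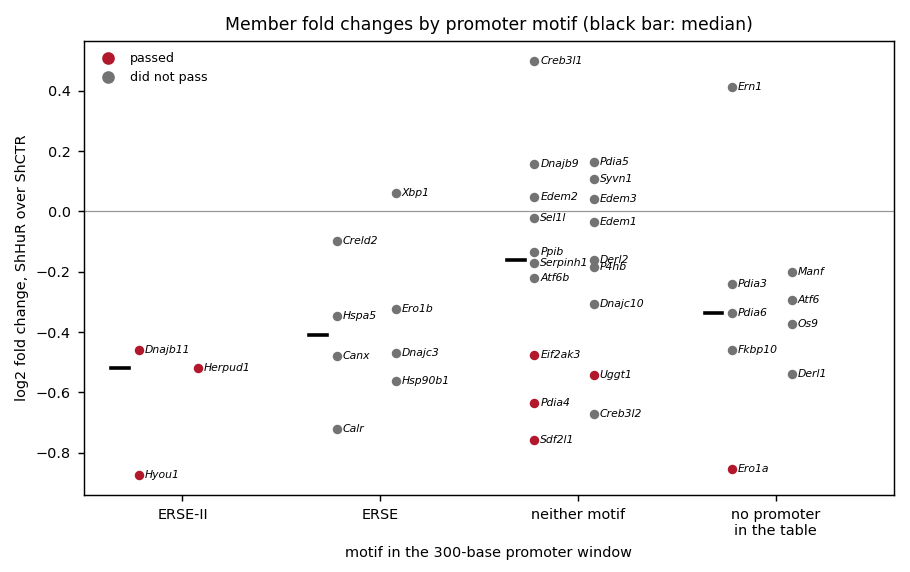
Log2 fold change (ShHuR over ShCTR) of each member by the motif, ERSE or ERSE-II, found in its 300-base promoter window. Members that passed are in red and the median of each class is a black bar. The UPRE core was not used for the classes, and Dnajc10, which held it, is under neither motif. The medians are −0.52 for ERSE-II, −0.41 for ERSE, −0.16 for neither motif and −0.34 for members with no window in the table.

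Among other ER genes, from a list of 79 symbols of which 65 had a row and 64 were tested, 13 fell and 1 rose. That is 20.3% lower, beside the 8.05% of all genes, and the median log2 fold change was −0.23. The list and its 13 falls include Vimp, the older name of the member Selenos. Of 21 tested folding enzymes 6 fell and 0 rose. Ppic, which encodes the ER cyclophilin C, had 3425, 1374, 990.2 and 1166 normalized counts in ShHuR replicates 1 to 4, against 6280.2, 2865, 2671 and 2368 in ShCTR replicates 1 to 4 (log2 fold change −1.10, SE 0.12, adjusted p = 0.00588). The groups overlapped through replicate 1, and the pairs moved by −0.87, −1.06, −1.43 and −1.02. Fkbp7, an ER prolyl isomerase, had 436, 469.6, 271 and 294 normalized counts in ShHuR replicates 1 to 4, against 557, 889, 995 and 617 in ShCTR replicates 1 to 4 (log2 fold change −1.05, SE 0.22, adjusted p = 0.0241). All ShHuR values of Fkbp7 lay below its control values.

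Of 18 tested genes of ER-associated degradation in that list 3 fell (16.7%), among them Vimp, and 0 rose. Of all tested genes 8.05% fell and 7.16% rose. Man1b1, the ER mannosidase that trims glycans and marks glycoproteins for degradation, had 732, 611, 493 and 824 normalized counts in ShHuR replicates 1 to 4, against 1523, 2365, 1712 and 1683 in ShCTR replicates 1 to 4. Its groups did not overlap (log2 fold change −1.46, SE 0.18, adjusted p = 0.00769). Of 15 translocon and signal peptidase genes 3 fell (20%) and 0 rose, with 14 of 15 fold changes below 0, beside 48.8% of all tested genes. Of 10 further sensors and transducers 1 fell (10%) and 1 rose, beside the same 8.05% and 7.16% of all tested genes. The rise was that of Ppp1r15a, known as GADD34, the phosphatase subunit that reverses eIF2α phosphorylation. It had 4964, 1915, 2619 and 1855 normalized counts in ShHuR replicates 1 to 4, against 4346, 1246, 1466 and 1166 in ShCTR replicates 1 to 4, higher in ShHuR in each pair (log2 fold change 0.58, SE 0.13, adjusted p = 0.0276), with the largest levels of both groups again in replicate 1.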

How the data were processed

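Per the labels' protocols, ribosomal RNA was depleted with Ribo-Zero Gold and libraries came from a stranded total RNA kit. The deposited table holds normalized signal for each library, named so in the file headers. Its values are gene counts scaled by 1 factor per library by the authors, as the values show. The authors also deposited log2 fold changes (ShHuR over ShCTR, by their sign) and adjusted p-values, in columns with the names DESeq2 writes, per the file headers. No source used here gives the aligner, the counting program, its strand setting or the genome build.

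All values (100%) were whole multiples of the step of their column, within 0.01 read. This returned the reads used for depth, edgeR and DESeq2, between 7 and 56468 for a member in a library. For nearly all rows, gene identifiers differ between the sheet of all genes and that of called genes, so rows are taken by symbol. Date-like symbols, 21 in number, held 0.257% of reads.

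Differences were tested by limma 3.58.1 (R 4.3.3, trended variance, two-sided) on log2 of the value plus 1, a scale that understates changes of weakly detected genes. Benjamini-Hochberg adjustment ran over 11847 genes with 10 normalized counts or more in 4 libraries, at 0.05. EdgeR 4.0.16 (quasi-likelihood) and DESeq2 1.42.0 were run on the reads, and the fits were tested on simulated data. The labels number the libraries 1 to 4 in both groups without saying what a number marks. The column headers carry the same numbers after an S in both groups, also without saying what they mark. Numbers were read as pairs because each same-numbered pair correlated above 0.1. That rule alone does not single out the pairs. ShHuR replicate 2 with ShCTR replicate 3 (0.62) and ShHuR replicate 3 with ShCTR replicate 2 (0.43) were above it too. Single-gene standard errors, 95% intervals and adjusted p-values come from limma with this replicate block unless another tool is named. Fold changes are the same with and without it. Libraries within a group differed beyond sampling noise, at 43.5 to 188.5 chi-square per degree of freedom. As separate animals or cultures are not stated, p-values cover only the spread between these samples, which may be technical.

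All members and Elavl1 are named, with up to 3 of the largest falls and rises among called genes of the list of other ER genes, and any row under an older symbol of a member. Ddit3, Atf4, Trib3, Col1a1, the motif search and the replicate-number test were chosen after values were seen. Not every promoter site found is reported here. The members and lists were chosen with earlier results of these data known.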

Additional observations from a re-analysis of the deposited data

Results flagged for a closer look

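Of 90 groups of 4 libraries, from 45 genes in ShHuR and in ShCTR, 3 held a library whose gap to its nearest neighbour was most of the group's range on the log2 scale. Chance gives about 1 in 20 such groups. Hspa5 was at 35774 normalized counts in ShHuR replicate 1, where the median of the other 3 ShHuR libraries was 10038. Uggt1 was at 2221 in ShCTR replicate 4, where the median of the other 3 ShCTR libraries was 2884. Dnajc10 was at 2314 in ShHuR replicate 3, where the median of the other 3 ShHuR libraries was 3191.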

How the results depend on the processing

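The calls depended on the replicate block, on the mean-variance trend and on which pairs were present. Limma without the block, the planned main fit, called 0 members and 0 other ER genes, and all genes called came to 0. The same held without the block with edgeR, with a pseudocount of 5 and with no filter on low values. DESeq2 without the block called 0 members and 4 other ER genes lower, and 248 genes in all. With the replicate block limma called 8 members and 13 other ER genes lower, 1 other ER gene higher and 1802 genes in all. With the block, a pseudocount of 5 gave 8, 13, 1 and 1831 in that order, no filter 8, 12, 1 and 1770, and quantile normalization 7, 12, 1 and 1648, with Ero1a no longer called. EdgeR with the block gave 8, 14, 1 and 1845, and DESeq2 with the block 14, 16, 1 and 2053. Limma with the block and no mean-variance trend gave 0, 4, 0 and 573. Without pair 1 the blocked fit gave 14 members lower and 1 higher, 18 other ER genes lower and 1 higher, and 2831 genes in all. Without pair 2 it gave 0 members, 2 other ER genes lower and 62 genes in all, and without pair 3 it gave 1, 5 and 523. Without pair 4 it gave 0 of each. Without the block, leaving out a replicate number gave 0 to 2 other ER genes lower, 0 members and 0 to 315 genes in all. The cause of these differences was not tested.

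Of 45 gene results, 40 kept the sign of their fold change under all 19 alternatives. P4hb changed sign to 0.15 and Sel1l to 0.052 after quantile normalization with the block. When 1 replicate number was left out, Sel1l ran from −0.067 to 0.027, Creld2 from −0.25 to 0.063, Edem1 from −0.12 to 0.13 and Xbp1 from −0.0019 to 0.13. Pdia5 was the member with the fewest reads, and depth limits its values most.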
